A study of Mus musculus with 8 samples.

Results

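The genes of GATA and C/EBP factors described here are 7 of 21631 protein-coding genes of the RefSeq table used: Gata4, Gata6, Zfpm1, Zfpm2, Cebpa, Cebpb and Cebpd. They were chosen by name, and every accessible region that overlapped a gene body or the 50 kb on either side of it was taken as belonging to the gene. A region is a stretch covered by at least 1 peak interval in any of 8 lists, with intervals merged where they shared 1 bp or more. The 7 genes had 141 regions of 98245 in all: 28 at Gata4, 13 at Gata6, 23 at Zfpm1, 39 at Zfpm2, 17 at Cebpa, 17 at Cebpb and 4 at Cebpd. Of these, 74 lay in the gene bodies and 18 overlapped another gene of the table.

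GATA factors are zinc finger proteins that bind a short motif with the letters GATA at its core. In granulosa cells, the somatic cells around the oocyte, GATA4 and GATA6 are known as activators of inhibin and steroid synthesis genes, and the Friend of GATA proteins, encoded by Zfpm1 and Zfpm2, bind GATA factors and act as their cofactors. C/EBP factors are basic leucine zipper proteins that bind DNA as dimers, and C/EBP alpha and C/EBP beta are needed in granulosa cells for ovulation and luteinisation, downstream of the kinases that the surge of luteinising hormone (LH) activates.

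Accessibility was measured by ATAC-seq, in which the transposase Tn5 tags open DNA, in 4 groups of 2 libraries. All mice were 21 days old and had 5 IU of eCG (equine chorionic gonadotropin, also named PMSG), a hormone that drives follicle growth, and granulosa cells of 2 to 3 mice were pooled for a replicate. The LH experiment used wild-type F1 mice of strain CBA x C57BL/6. Its PMSG group is taken as killed 46 h after eCG, and its hCG group as killed 6 h after a further 5 IU, at that time, of human chorionic gonadotropin (hCG), which stands in for the LH surge. These meanings follow the titles and source names, because the time tags of the 4 LH libraries say the reverse (0 h for hCG, 6 h for PMSG). In the PR experiment WT (wild-type) and KO (knockout) mice were of the strain C.129S7(B6)-Pgrtm1Bwo/OmcJ, which carries a targeted allele of Pgr, the progesterone receptor gene. All 4 PR libraries have the 6 h tag, and their mice are taken as killed 6 h after 5 IU of hCG, given 46 h after eCG. Their source name is pre-ovulatory cells, the term that the LH experiment gives its PMSG libraries. The allele is in every cell of the KO mouse, so the knockout is not limited to the granulosa cells that were compared.

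The lists held between 55654 and 84313 intervals, which covered 38.2 and 39.0 Mb in the hCG libraries, 29.8 and 29.9 Mb in PMSG, 43.6 and 43.9 Mb in WT, and 38.9 and 31.7 Mb in KO. Numbers of reads are unknown. At the start of Pgr each hCG, PMSG and WT list had 1 interval and each KO list had 2. Of 6 granulosa cell markers, 3 or 4 had a peak at a gene end in every list (Fshr, Foxl2 and Inha in all 8), while Cyp19a1 and Nr5a2 had one in none. Of the markers of other cells, 1 or 2 of 3 theca, 1 or 2 of 4 endothelial and 1 of 4 oocyte markers had such a peak. Of 4 immune markers, 1 (Cd68) had it in both hCG lists and none had it in the other 6, while Ptprc, Adgre1 and Itgam had it in no list. The part of immune cells in the differences between hCG and PMSG was not tested. Since these are pools of cells, a change in the share of cells with an open region and a change in every cell cannot be told apart.

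A region at a gene end was held by all 8 libraries for each of the 7 genes. Promoter sequences in RefSeq (build GRCm38.p6) matched 3 members, Cebpb, Cebpa and Zfpm1. They are shown because the 250 bases before each start lay wholly inside a peak in all 8 lists. Capitals mark matches, on either strand, to TGACG, the core of the cyclic AMP response element, and to GGGCGG, a site of Sp1, and overlapping matches run together. Each window is on the plus strand and ends at the last base before the start: chr2:167688665-167688914 for Cebpb, chr7:35119043-35119292 for Cebpa and chr8:122281891-122282140 for Zfpm1.
Cebpb: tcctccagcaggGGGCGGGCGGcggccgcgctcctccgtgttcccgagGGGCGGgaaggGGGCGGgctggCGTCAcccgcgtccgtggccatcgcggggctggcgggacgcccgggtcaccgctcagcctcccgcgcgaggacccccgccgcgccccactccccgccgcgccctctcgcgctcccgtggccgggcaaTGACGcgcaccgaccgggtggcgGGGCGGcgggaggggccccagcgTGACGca
Cebpa: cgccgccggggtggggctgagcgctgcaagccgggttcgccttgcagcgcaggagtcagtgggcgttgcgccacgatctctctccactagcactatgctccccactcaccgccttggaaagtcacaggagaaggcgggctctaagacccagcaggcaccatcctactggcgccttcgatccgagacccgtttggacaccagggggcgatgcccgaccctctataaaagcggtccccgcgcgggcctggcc
Zfpm1: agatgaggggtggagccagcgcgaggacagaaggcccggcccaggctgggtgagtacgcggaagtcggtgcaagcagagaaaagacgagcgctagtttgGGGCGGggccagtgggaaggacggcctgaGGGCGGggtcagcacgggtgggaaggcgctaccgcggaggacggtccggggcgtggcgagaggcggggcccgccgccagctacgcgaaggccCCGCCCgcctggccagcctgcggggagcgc
The Cebpb window had 3 matches to TGACG, which begin 180, 53 and 7 bases before the start. A match to TGACG occurred in 17.8% of 32851 promoter windows of this length. The same window had 5 matches to GGGCGG, and the Zfpm1 window had 3, against 32.7% of all windows with at least 1. The Cebpa window had neither motif. None of the 3 windows had the GATA motifs AGATAA (9.99% of all windows) or TGATAA (7.94%), the C/EBP motif TTGCNNAA (9.56%), the complete cyclic AMP element TGACGTCA (1.55%), the AP-1 motif TGANTCA (6.75%) or the steroid receptor element (0.387%). A match is a string of letters, and no factor was measured on it. Bases in the window were 81.6% G or C for Cebpb, 73.2% for Zfpm1 and 66.4% for Cebpa.

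The gene-end regions ranked in the middle or low part of their lists. Rank here is the percentile, within one list, of the authors' fold of a peak over its local background, with 100 the best peak. Over the 7 regions and 8 lists this percentile ran from 12.3 to 68.0, and the covered width from 490 to 2379 bp. The Cebpb region at chr2:167687607-167689983 was at 14.6 and 14.4 in hCG, 28.4 and 24.8 in PMSG, 17.5 and 16.2 in WT, and 15.0 and 19.5 in KO. It was broad in each list, with 1715 and 1673 bp in hCG and 2291 and 2141 bp in PMSG. The Cebpa region at chr7:35118099-35120200 was at 38.4 and 37.6 in hCG, 54.7 and 53.0 in PMSG, 53.6 and 62.3 in WT, and 41.5 and 68.0 in KO. Both of these starts ranked lower in the 2 hCG lists than in the 2 PMSG lists, but neither passed the test of ranks described below (adjusted p of 0.0711 for Cebpb and 0.0628 for Cebpa, limma).

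The Cebpd region at chr16:15886687-15888249 overlapped the lower-coordinate end of this small gene, which encodes C/EBP delta. It was at 66.3 and 63.3 in hCG, 50.6 and 44.3 in PMSG, 63.4 and 68.0 in WT, and 59.8 and 63.3 in KO, and its width stayed between 1463 and 1549 bp. It was the 1 gene-end region of the 7 that passed in the LH experiment, with a score difference of 0.48 (SE 0.16) and an adjusted p of 0.0485 in limma. That call was lost when any 1 of the 4 libraries was left out. It was also lost with the replicate number as a block (adjusted p = 0.0584, limma) and with the same number of peaks in every list (0.0647). The Zfpm1 start, at chr8:122281052-122282519, was at 52.7 and 50.9 in hCG, 56.9 and 60.7 in PMSG, 56.0 and 60.5 in WT, and 47.1 and 67.9 in KO. The Zfpm2 region at chr15:40654383-40656814 was at 48.4 and 43.3 in hCG and at 44.7 and 41.2 in PMSG. The Gata6 region at chr18:11051344-11053601 was at 18.98 and 19.3 in hCG and at 18.3 and 21.5 in PMSG. For Gata4 the peak was at the higher-coordinate end, chr14:63271318-63272025, at 25.8 and 19.9 in hCG and at 18.6 and 12.3 in PMSG. The latter 4 regions did not pass in either experiment.

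**Figure D1:**
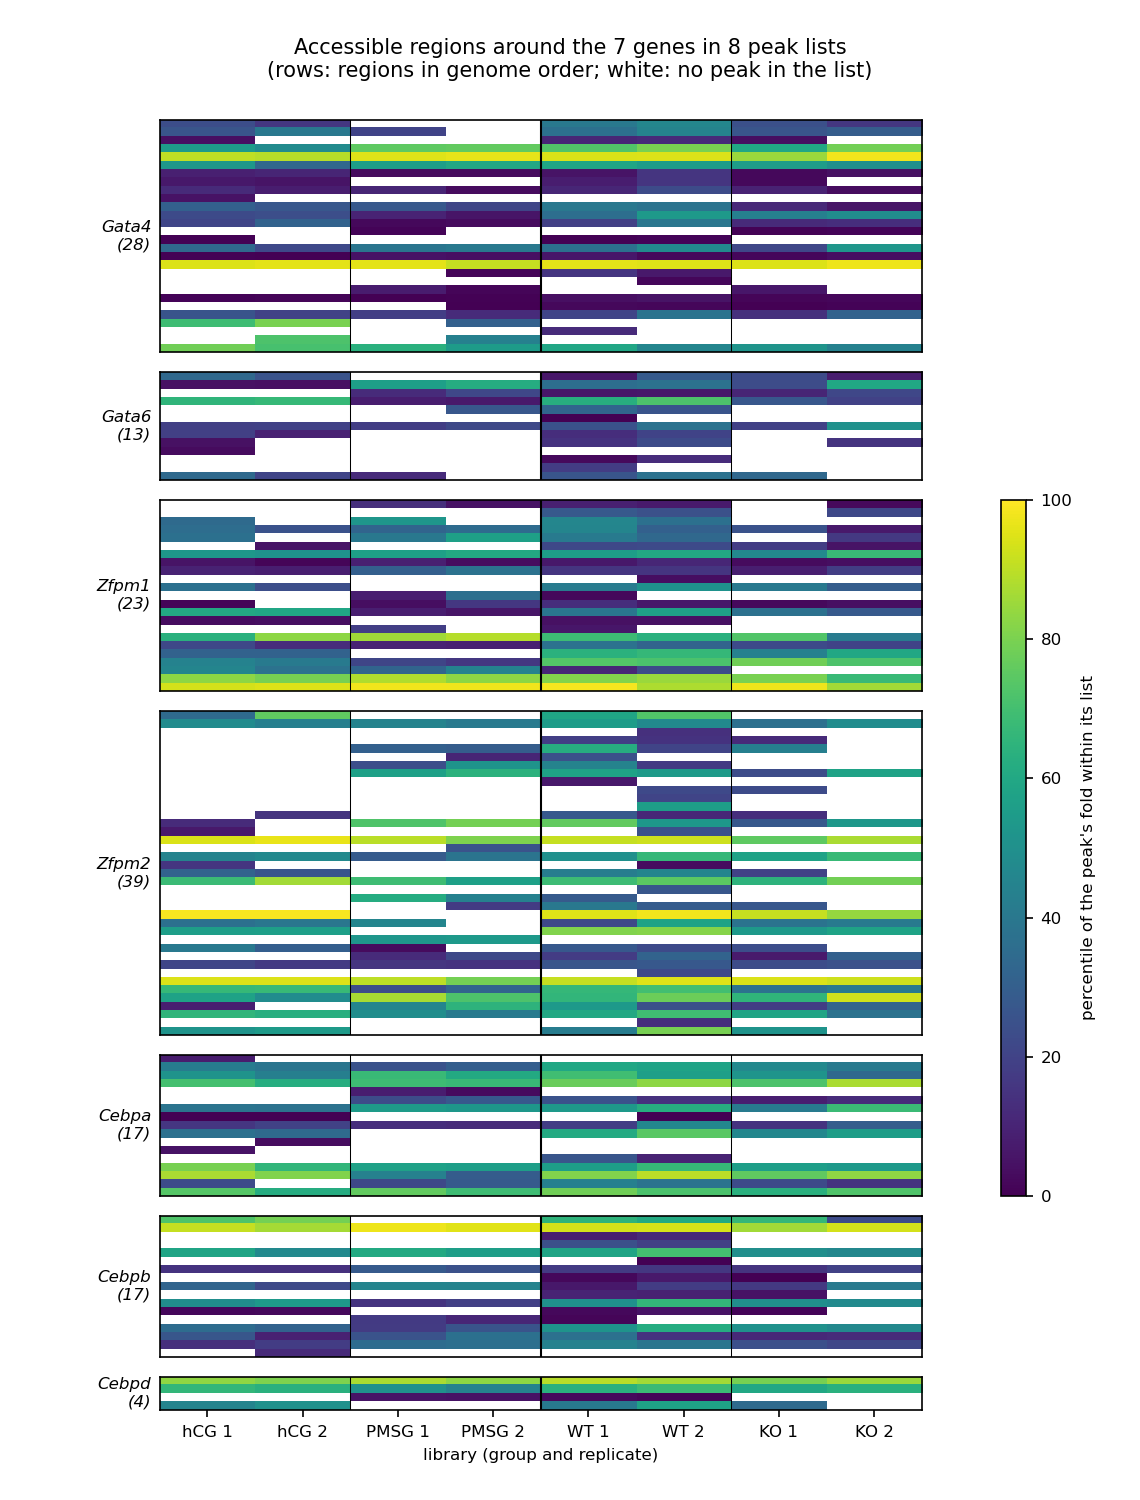
Each row is 1 of the 141 regions around the 7 genes, in genome order within its gene, and each column is 1 of the 8 libraries. Colour gives the percentile of the region's best peak by fold within that library's list, and white means that the list had no peak there. Gata6 has 3 regions held by all 8 libraries of its 13, and Gata4 has 14 of 28.

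Beyond the gene ends the sets of regions differed widely in how many libraries held them. Of the 141 regions 54 (38.3%) were held by all 8 libraries, close to the 37.9% over all 98245 regions, and 20 were held by 1 library. The share held by all 8 was 50% at Gata4 (14 of 28) and at Cebpd (2 of 4), 47.1% at Cebpa and at Cebpb (8 of 17 each), 43.5% at Zfpm1 (10 of 23), and 23.1% at Zfpm2 (9 of 39) and at Gata6 (3 of 13). The total held was 92 and 82 in hCG, 81 and 82 in PMSG, 115 and 119 in WT, and 91 and 79 in KO. The WT lists, which are the longest, held the most. Zfpm2, a gene of long span with 37 of its 39 regions inside it, had 34 regions in WT replicate 2 and 16 in KO replicate 2.

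The best ranked regions lay away from the gene ends. At Gata4 the region at chr14:63255452-63256379, inside the gene, was above the 91st percentile in all 8 lists, from 91.3 in PMSG replicate 2 to 97.6 in KO replicate 2. At Zfpm2 the best was chr15:40935663-40936313, inside the gene, at 99.0 in both hCG lists, 95.2 and 97.7 in WT, and 91.2 and 84.0 in KO. Neither PMSG list had a peak in it. The best Zfpm2 region that all 8 libraries held was chr15:41022044-41022692, from 79.0 in PMSG replicate 2 to 95.2 in WT replicate 2. At 3 genes the best region lay within 50 kb of the gene but inside or at another gene. These were chr8:122376168-122377173 for Zfpm1 (86.1 to 98.6, at Zc3h18), chr2:167661006-167662138 for Cebpb (86.0 to 97.5, in Tmem189) and chr16:15862390-15863656 for Cebpd (79.4 to 89.3, in Mzt2). Cebpa had its best mean at chr7:35091781-35093248, 26.0 kb from the gene on the lower-coordinate side, with 62.2 to 87.2. The best Gata6 region, chr18:11015608-11016302, averaged only 41.0 because its values were split between the libraries, as given below.

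Presence was compared first between hCG and PMSG. Of 119 regions that any LH library held, 17 were in both hCG lists and absent from both PMSG lists, and 14 were the reverse. Over all 80889 regions held in the LH experiment the same counts were 17.6% for hCG and 10.3% for PMSG. Both member shares lie near those backgrounds. The hCG-only count was 26 without hCG replicate 2, and also 26 where intervals had to cover 50% of a region. Leaving out a library can only keep or raise such a count. Shares over all regions were not counted under these settings, so both counts of 26 have no background. Presence was not tested region by region, since an exact permutation test of 2 libraries against 2 cannot give a p under 0.333. All 31 lay off the gene ends. By gene, the hCG-only and PMSG-only counts were 2 and 1 at Gata4, 2 and 1 at Gata6, 3 and 2 at Zfpm1, 5 and 6 at Zfpm2, 2 and 2 at Cebpa, 2 and 1 at Cebpb, and 1 and 1 at Cebpd.

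Zfpm2, which encodes the cofactor FOG2, had both hCG-only and PMSG-only regions within the same gene. Its hCG-only region at chr15:40935663-40936313 had the authors' fold of 17.7 and 17.9 in hCG, and 16.6, 19.4, 14.3 and 12.8 in WT and KO. A second, chr15:40958152-40958503, was at percentiles 56.0 and 56.5 in hCG, 81.0 and 81.8 in WT, and 54.0 and 57.9 in KO. Both were thus open in all 6 libraries other than PMSG. Among the 6 PMSG-only regions of Zfpm2 the best ranked, chr15:40718830-40719210, was at 57.0 and 64.1 in PMSG, 57.6 and 54.4 in WT, and 23.2 and 57.7 in KO. Another, chr15:40965461-40965714, was at 52.4 and 53.9 in PMSG and in no other list. The 6 PMSG-only regions all lay in the gene body, and 2 of the 5 hCG-only regions lay outside it.

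At Gata4 the best ranked hCG-only region was chr14:63148481-63149116, 49.8 kb from the gene and inside Fdft1, at 23.7 and 16.3 in hCG, 40.5 and 46.1 in WT, and 24.5 and 16.2 in KO. The PMSG-only region of Gata4, chr14:63267216-63267603, was at 7.81 and 1.45 in PMSG, and KO replicate 1 had it too (5.89). At Gata6 an hCG-only and a PMSG-only region were close neighbours. The hCG-only region at chr18:11009436-11010272 was at 33.9 and 25.6 in hCG, 6.01 and 28.4 in WT, and 22.3 and 8.04 in KO. The PMSG-only region at chr18:11011652-11012013 was at 12.4 and 21.2 in PMSG, 5.90 and 6.45 in WT, and 10.3 and 21.4 in KO. All 4 PR libraries held both. For Zfpm1, which encodes FOG1, the best hCG-only region was chr8:122349460-122350118, 11.6 kb beyond the gene, at 31.3 in both hCG lists and between 43.9 and 66.6 in the PR lists. Its best PMSG-only region, chr8:122299826-122300185 in the gene body, was at 8.46 and 36.3 in PMSG and at 1.95 in WT replicate 1.

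At the C/EBP genes the hCG-only regions were all outside the gene bodies but 1. The Cebpb region at chr2:167649081-167649793, 39.1 kb from the gene and inside Tmem189, was at 72.6 and 79.2 in hCG, 65.1 and 61.2 in WT, and 66.5 and 22.9 in KO. The Cebpa region at chr7:35133044-35133760, 11.1 kb beyond the gene, was at 36.9 and 34.6 in hCG, 61.0 and 74.4 in WT, and 46.4 and 55.6 in KO. The Cebpd region at chr16:15936944-15937239, 47.4 kb beyond the gene and inside Spidr, was at 45.3 and 50.7 in hCG, 40.9 and 57.6 in WT, and 34.4 in KO replicate 1. KO replicate 2 had no peak there. The second hCG-only region of Cebpa was a weak peak, at 0.0587 and 0.0634 in hCG, and that of Cebpb was at 1.67 and 2.1. The best ranked PMSG-only region of each gene was at 23.4 and 27.9 for Cebpa at chr7:35112774-35113419, 16.9 and 10.8 for Cebpb at chr2:167712289-167712613, and 5.41 and 4.73 for Cebpd at chr16:15889634-15889889.

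The PR libraries, all taken after hCG by the 6 h tag, were compared with these classes. Most hCG-only regions were held by each WT library and by KO replicate 1, and fewer by KO replicate 2. Of the 17, WT replicate 1 held 16, WT replicate 2 held 17, KO replicate 1 held 13 and KO replicate 2 held 8. Over all hCG-only regions these libraries held 79.7%, 91.2%, 62.9% and 44.3%. All 4 PR libraries held 8 of the 17 (47.1%, against 40.7% of all 14212 hCG-only regions). Of the 14 PMSG-only regions, WT replicate 1 held 11, WT replicate 2 held 8, KO replicate 1 held 6 and KO replicate 2 held 5. Over all 8338 PMSG-only regions the shares were 76.2%, 45.6%, 20.8% and 34.1%. All 4 libraries held 4 of the 14 (28.6%, against 13.2% of all). Strain, and possibly filtering, also separates the experiments, so these shares are descriptions.

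**Figure D2:**
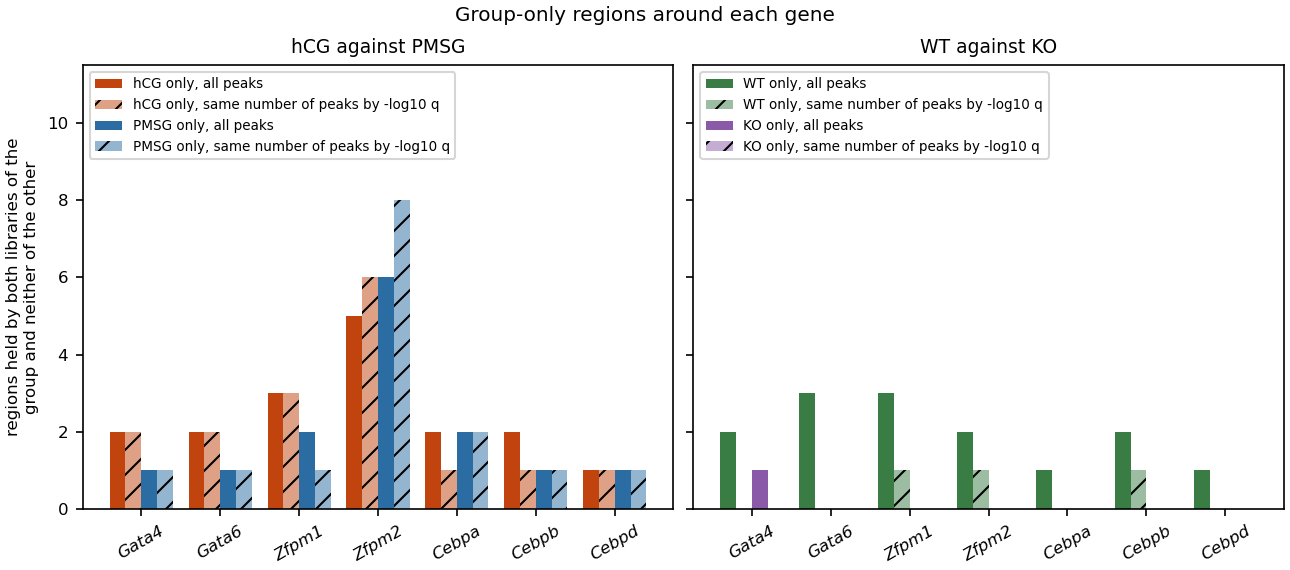
Bars count, for each of the 7 genes, the regions held by both libraries of a group and by neither library of the opposing group. Solid bars use all peaks, and hatched bars use the same number of peaks in every list (55654, the best by −log10 q). WT-only regions total 14 with all peaks and 3 with equal lists.

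The WT-only counts moved with the lengths of the lists. Of 130 regions held in the PR experiment, 14 were in both WT lists and neither KO list and 1 was the reverse, against 12.1% and 0.0802% of all 91017 regions. The WT lists are longer (80137 and 84313 intervals against 58851 and 55654 in KO). With 55654 peaks taken from each list by −log10 q, 3 regions were WT-only and 0 KO-only, against 2.78% and 2.49% of all. With as many peaks taken by fold, 2 were WT-only and 10 KO-only, against 4.26% and 4.15%, so the direction turned with the choice. With 1 library left out the WT-only count was 26 (without WT replicate 1), 23 (without WT replicate 2) and 28 (without KO replicate 1), and the KO-only count was 2 without KO replicate 2. Such counts can only stay or rise when a library is left out, and the shares over all regions were not counted. The best ranked WT-only region of each gene, with all peaks, was taken. The highest were chr15:40635717-40635910 at Zfpm2 (58.6 and 73.0 in WT), chr8:122259324-122259741 at Zfpm1 (46.0 and 36.9) and chr18:11024665-11024997 at Gata6 (32.6 and 25.9). Those of the other genes were lower: chr2:167675283-167675684 at Cebpb (24.3 and 19.03), chr7:35149949-35150122 at Cebpa (26.5 and 10.1), chr14:63262586-63263122 at Gata4 (15.6 and 6.99) and chr16:15889634-15889889 at Cebpd (2.58 and 1.49). The Zfpm2 and Gata6 regions differed in the LH experiment, since both hCG lists held the former (34.8 and 75.4) and PMSG replicate 2 alone held the latter (27.3). The KO-only region, chr14:63236521-63237263 in Gata4, was among the weakest peaks of its lists, at 0.533 and 1.15.

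Regions that all 4 libraries of an experiment held were compared by rank. Each was ranked by fold among the regions shared by the 4 libraries (40780 in LH, 48711 in PR), the ranks were turned into normal scores, and limma tested the difference over all shared regions with Benjamini-Hochberg adjustment at 0.05. Of the 55 member regions tested in LH, 13 ranked higher in hCG and 10 higher in PMSG, against 18.6% and 19.4% of all. The median score difference was 0.10 for the members and −0.066 for all regions. Counts higher in hCG and higher in PMSG were 3 and 3 at Gata4, 1 and 1 at Gata6, 2 and 2 at Zfpm1, 4 and 1 at Zfpm2, 1 and 0 at Cebpa, 1 and 3 at Cebpb, and 1 and 0 at Cebpd. With 1 library left out the hCG count fell to 8 (without hCG replicate 2) and 7 (without PMSG replicate 2), and the PMSG count to 5 (without PMSG replicate 1) and 6 (without PMSG replicate 2). With equal lists the counts were 6 and 4. There only 17 of the 23 called regions could be tested, of which 10 kept the call, and the share over all regions was not counted. Of the 23 calls, 8 passed under every alternative processing in which the region could be tested.

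By rank of fold, Gata6 had the largest differences, in both directions, at 2 regions 4281 bp apart on the lower-coordinate side of the gene. This order depends on the measure: by −log10 q the Gata4 region chr14:63246844-63248185 was at −1.87, beyond the −1.58 of Gata6. Percentiles below are ranks among the shared regions. The region at chr18:11010835-11011326, 41.2 kb from the gene, was at 1.93 and 2.21 in hCG and at 44.6 and 50.5 in PMSG, a score difference of −1.98 (SE 0.16, adjusted p = 0.000388, limma). The region at chr18:11015608-11016302, 36.2 kb from the gene, was at 52.7 and 58.0 in hCG and at 4.24 and 3.55 in PMSG, a difference of 1.90 (SE 0.16, adjusted p = 0.000423). Its peak was also wider in hCG (633 and 640 bp) than in PMSG (194 and 219 bp), while the widths of the former were alike (279 and 284 bp, 323 and 317 bp). The groups did not overlap at either region, and both calls held under every alternative run on them, which for the former did not include equal lists. In the PR libraries the former was at 16.1 and 15.2 in WT and at 16.3 and 54.2 in KO, and the latter at 42.7 and 53.7 in WT and at 19.8 and 14.0 in KO. The KO replicates were thus far apart at the former region.

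Gata4 and the Friend of GATA genes also had calls in both directions. At Gata4, chr14:63232583-63233263 was at 11.3 and 21.7 in hCG and at 1.03 and 1.497 in PMSG (difference 1.25, SE 0.19, adjusted p = 0.00268, limma). The reverse was seen 13580 bp away at chr14:63246844-63248185, a low region at 0.104 and 0.0503 in hCG and at 2.56 and 2.14 in PMSG (difference −1.20, SE 0.16, adjusted p = 0.00172). At Zfpm1, chr8:122312568-122314037 in the gene body was at 47.0 and 49.3 in hCG and at 4.51 and 3.07 in PMSG (difference 1.74, SE 0.16, adjusted p = 0.000498). This peak covered 1239 and 1268 bp in hCG, 170 and 194 bp in PMSG, 1371 and 1434 bp in WT, and 1234 and 521 bp in KO, so both PMSG peaks were the narrowest of the 8. In the same gene chr8:122294252-122294736 was at 4.55 and 5.02 in hCG and at 19.3 and 25.4 in PMSG (difference −0.90, SE 0.16, adjusted p = 0.0049), a call lost when peaks were ranked by −log10 q (adjusted p = 0.101).

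At Zfpm2 the opposite calls were 870 bp apart. The region chr15:41028247-41028682 was at 55.1 and 58.5 in hCG and at 14.5 and 20.7 in PMSG (difference 1.11, SE 0.17, adjusted p = 0.00242, limma). Its neighbour chr15:41029553-41029993 was at 43.9 and 38.0 in hCG and at 82.3 and 62.7 in PMSG (difference −0.85, SE 0.22, adjusted p = 0.0198). The call at the neighbour was lost without hCG replicate 2, without PMSG replicate 1 and when ranked by −log10 q (adjusted p up to 0.102). In the PR experiment the former was at 48.0 and 50.6 in WT and at 29.4 and 34.4 in KO, and the neighbour at 46.7 and 62.2 in WT and at 59.1 and 91.7 in KO.

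Among the C/EBP genes the largest difference was 41.4 kb beyond Cebpa, at chr7:35163338-35164134. It was at 81.8 and 75.0 in hCG and at 31.9 and 18.1 in PMSG, a difference of 1.48 (SE 0.20, adjusted p = 0.00161, limma), and its width was 580 and 661 bp in hCG against 186 and 247 bp in PMSG. All 4 PR libraries were on the hCG side of this split, at 69.7 and 82.5 in WT and at 71.0 and 80.9 in KO. By percentile within the whole list they were on that side too, at 81.2 and 89.7 in WT and 75.8 and 83.3 in KO. The LH libraries were then at 87.4 and 81.1 in hCG and 44.1 and 29.0 in PMSG. At Cebpb, chr2:167708349-167709130, 17.9 kb beyond the gene, was at 34.8 and 43.5 in hCG and at 8.54 and 10.7 in PMSG (difference 1.03, SE 0.17, adjusted p = 0.00326). The PR libraries were again on the hCG side by both measures, from 28.0 to 45.3 among the shared regions and from 47.9 to 66.1 within the whole list. In the other direction chr2:167729282-167730125, 38.9 kb beyond Cebpb, was at 6.68 and 11.0 in hCG and at 23.7 and 24.5 in PMSG (difference −0.66, SE 0.17, adjusted p = 0.0192). That call was lost without hCG replicate 1 and without PMSG replicate 2 (adjusted p up to 0.119). The best ranked Cebpb region, chr2:167661006-167662138, was also higher in PMSG, at 96.5 and 93.7 against 87.1 and 81.7 in hCG (difference −0.66, SE 0.18, adjusted p = 0.0244), but its sign turned when ranked by −log10 q (0.045). The call was also lost without hCG replicate 2 (adjusted p = 0.121, limma) and without PMSG replicate 1 (0.108).

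**Figure D3:**
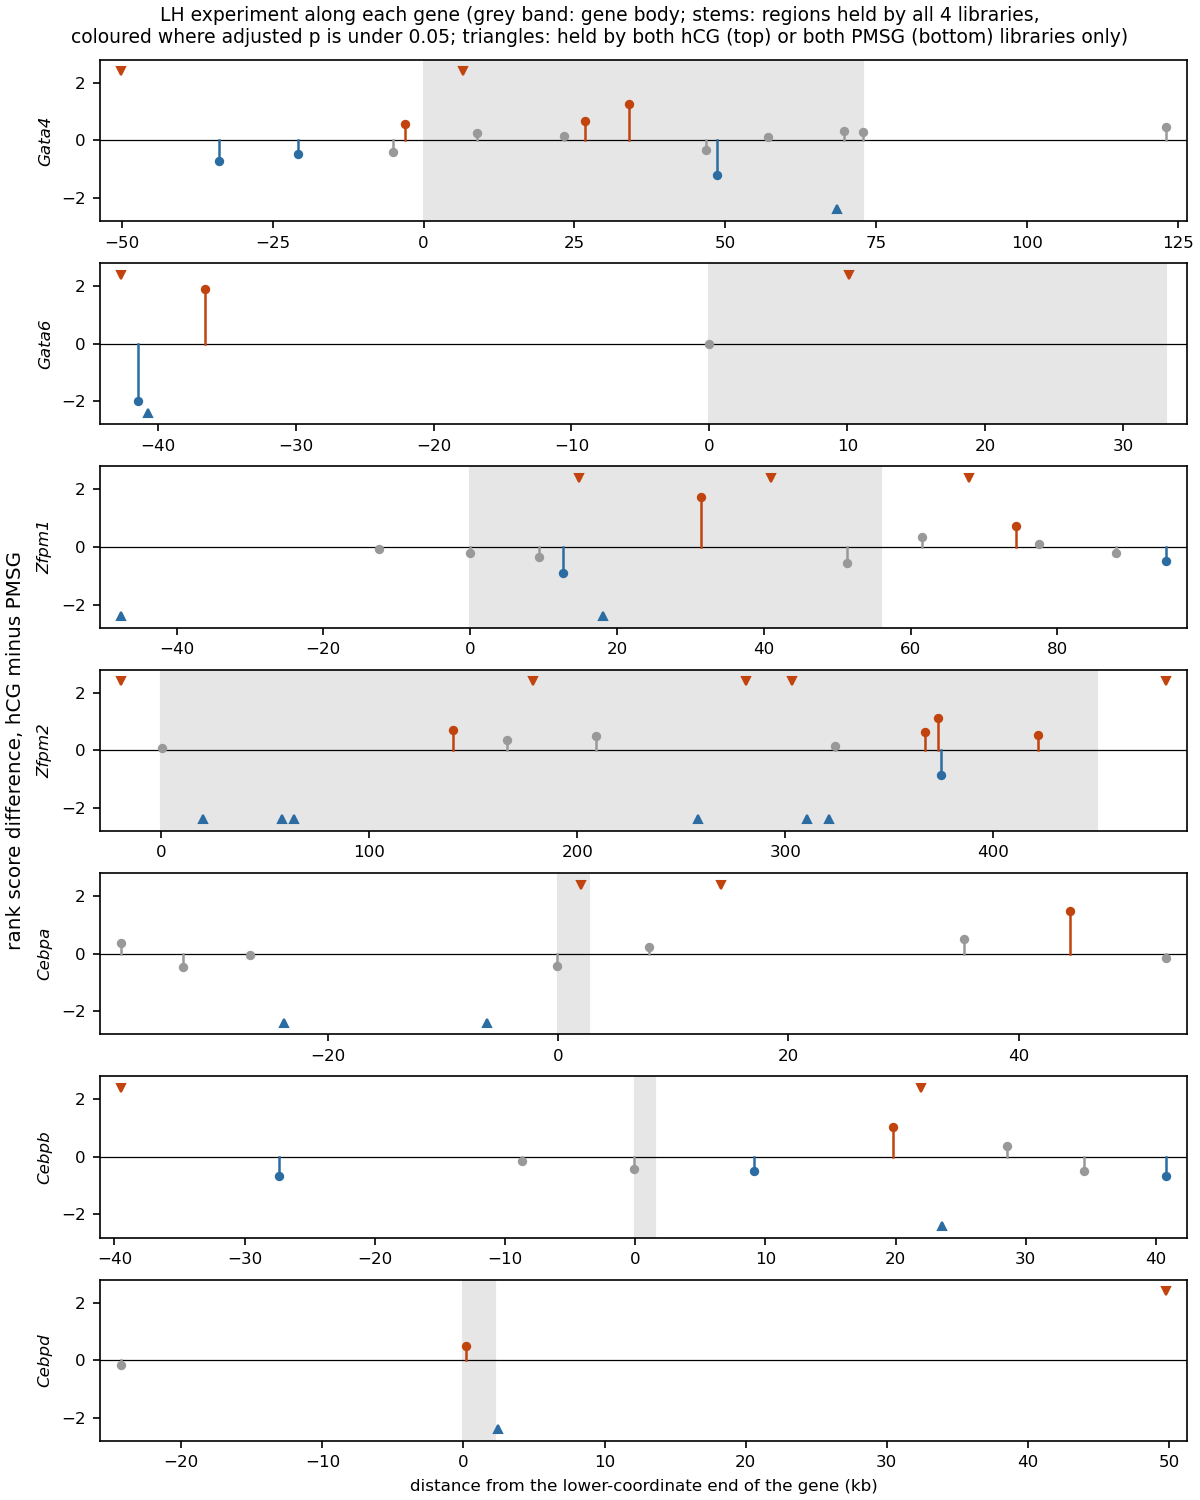
Stems give, for the regions held by all 4 LH libraries, the rank score difference of hCG minus PMSG against the distance from the lower-coordinate end of the gene in kb. Colour marks an adjusted p under 0.05, the grey band is the gene body, and triangles mark regions held by both hCG libraries only (top) or both PMSG libraries only (bottom). The 2 regions of Gata6 at −1.98 and 1.90 stand side by side.

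No member region passed the rank test in the PR experiment. Of 74 tested, 0 passed after adjustment, as did 0 of all 48711 regions (0%), and 3 had an unadjusted p under 0.05, against 3.49% of all. Those 3 were chr18:11015608-11016302 and chr18:11011652-11012013 at Gata6 and chr2:167697852-167698300 at Cebpb. The first ranked higher in both WT libraries (difference 0.92, SE 0.31, unadjusted p = 0.0117, limma). The second was at 2.09 and 1.73 in WT and at 6.82 and 15.8 in KO (difference −0.83, SE 0.32, unadjusted p = 0.0226). The third was at 2.28 and 5.45 in WT and at 11.2 and 34.4 in KO (difference −0.99, SE 0.35, unadjusted p = 0.0158). The adjusted p was 1 for each. All alternatives gave 0 calls as well. The replicates spread more here than in LH, with SEs of 0.301 to 0.422 over the 74 regions against 0.155 to 0.2602 over the 55 in LH.

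**Figure D4:**
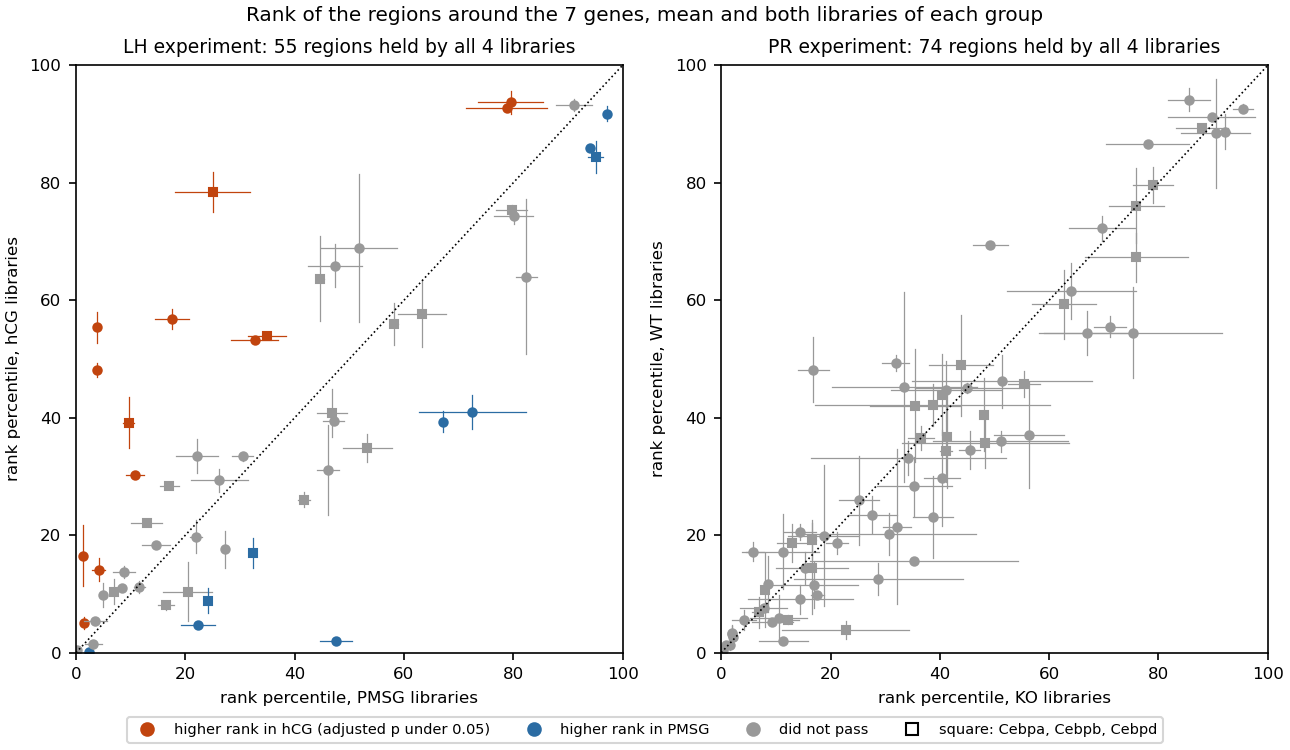
Points are regions around the 7 genes that all 4 libraries of an experiment held, by mean rank percentile in PMSG or KO (x axis) and in hCG or WT (y axis), and lines reach to the value of each library. Colour marks an adjusted p under 0.05 in limma. In LH 13 regions lie above and 10 below the diagonal with a call, and in PR none of 74 has one.

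Presence and width were put together as the covered length around a gene: bp of peaks in the gene body and 50 kb either side per Mb of peaks in the list. This scale takes out the larger covered length of the hCG lists. Values differ between genes with the size of the window, which ranged from 102 kb at Cebpb to 549.6 kb at Zfpm2, so each gene is compared only with itself. In the LH experiment 3 of the 7 genes were higher in hCG and 2 higher in PMSG, against 20.2% and 20.2% of 18606 genes tested with limma on log2 of the value plus 10.

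Gata4, Gata6 and Zfpm1 were higher in hCG. Gata4 covered 364.1 and 353.8 bp per Mb in hCG and 288.1 and 300.01 in PMSG (log2 difference 0.28, SE 0.038, adjusted p = 0.00509, limma). Gata6 covered 133.3 and 123.3 in hCG and 97.4 and 99.8 in PMSG (0.35, SE 0.059, adjusted p = 0.009), and Zfpm1 264.3 and 255.8 in hCG and 187.6 and 193.4 in PMSG (0.43, SE 0.040, adjusted p = 0.00227). In each of the 3 genes both hCG libraries lay above both PMSG libraries. For Gata6 the adjusted p was 0.0511 without hCG replicate 1.

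Zfpm2 was higher in PMSG. It covered 244.7 and 218.7 bp per Mb in hCG and 356.7 and 330.1 in PMSG (log2 difference −0.55, SE 0.066, adjusted p = 0.00389, limma). Undivided by the covered length of the list, the median gene was 0.32 higher in hCG on the log2 scale (0.24 higher in WT in the PR experiment). On that scale Zfpm2 was still lower in hCG, 9544 and 8347 bp against 10647 and 9862 bp, without passing (−0.19, adjusted p = 0.0554). Cebpd also passed as higher in PMSG, with 77.6 and 78.4 in hCG and 93.4 and 96.3 in PMSG (−0.25, SE 0.057, adjusted p = 0.0203). Undivided, its direction turned (0.077, with 3026 and 2993 bp in hCG and 2789 and 2878 bp in PMSG), and its call was lost without hCG replicate 1, without hCG replicate 2 and without PMSG replicate 2 (adjusted p up to 0.0864), and with the same number of peaks in every list (−0.13, adjusted p = 0.151).

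Cebpa and Cebpb did not pass. Cebpa covered 221.6 and 233.1 bp per Mb in hCG and 205.2 and 224.02 in PMSG (log2 difference 0.081, SE 0.056, adjusted p = 0.286, limma), although it passed undivided (0.43, adjusted p = 0.00104). Cebpb covered 158.4 and 209.4 in hCG and 193.6 and 185.6 in PMSG (−0.054, SE 0.12, adjusted p = 0.746). The hCG replicates of Cebpb lay on either side of both PMSG libraries, and the sign turned undivided (0.29) and without hCG replicate 1 (0.14).

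In the PR experiment no gene passed, 0 of the 7 and 0 of 18603 (0%), and 2 of the 7 had an unadjusted p under 0.05, against 18.2% of all. Cebpb covered 239.1 and 234.2 bp per Mb in WT and 182.1 and 172.1 in KO (log2 difference 0.40, SE 0.067, unadjusted p = 0.000547, adjusted p = 0.148, limma). Both WT libraries lay above both KO libraries, and above all 4 LH libraries. Part of that length was a region 2.35 kb beyond the gene, chr2:167692777-167694731, which covered 1080 and 1955 bp in WT and 223 bp in KO replicate 1 and which no other library held. Its peaks were weak, at percentiles 1.98 and 6.88 within the whole list in WT. Undivided, Cebpb passed (0.70, adjusted p = 0.0293). With the same number of peaks by fold the sign turned (−0.37, adjusted p = 0.37). Zfpm1 covered 290.5 and 293.9 in WT and 235.5 and 243.8 in KO (0.28, SE 0.062, unadjusted p = 0.00279, adjusted p = 0.153), with no overlap of the groups. With the same number of peaks the difference was 0.0079.

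Set side by side over the 4 groups, with mean ± SD of n = 2 libraries in bp per Mb, the genes had different orders. Gata4 was lowest in PMSG (294.1 ± 8.42), alike in hCG (358.9 ± 7.33) and WT (360.8 ± 10.02), and highest in KO (390.01 ± 7.35). Undivided by list length, KO was below WT at Gata4, with 15377 and 12184 bp against 16151 and 15434 bp. Gata6 ran from PMSG (98.6 ± 1.67) to KO (109.2 ± 1.11), WT (123 ± 7.80) and hCG (128.3 ± 7.09), with WT and hCG overlapping. Zfpm1 had the order PMSG (190.5 ± 4.12), KO (239.6 ± 5.88), hCG (260.05 ± 5.97) and WT (292.2 ± 2.398), with no overlap between neighbours.

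Zfpm2 had nearly the reverse order: hCG (231.7 ± 18.4), WT (287.9 ± 2.39), KO (293 ± 16.9) and PMSG (343.4 ± 18.8), with WT and KO overlapping. Cebpa ran from PMSG (214.6 ± 13.3) over WT (218.8 ± 5.37) and hCG (227.4 ± 8.14) to KO (237.05 ± 2.43), and its first 3 groups overlapped. Cebpb was similar in KO (177.1 ± 7.04), hCG (183.9 ± 36.1) and PMSG (189.6 ± 5.63), and higher in WT (236.7 ± 3.46). Cebpd ran from WT (73.5 ± 2.13) over hCG (78.0 ± 0.578) and KO (79.8 ± 5.45) to PMSG (94.9 ± 2.05), with hCG and KO overlapping. These orders hold for values divided by list length: undivided, the mean bp was highest in WT at each of the 7 genes. Levels set across the experiments are descriptions, because strain and possibly filtering differ.

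**Figure D5:**
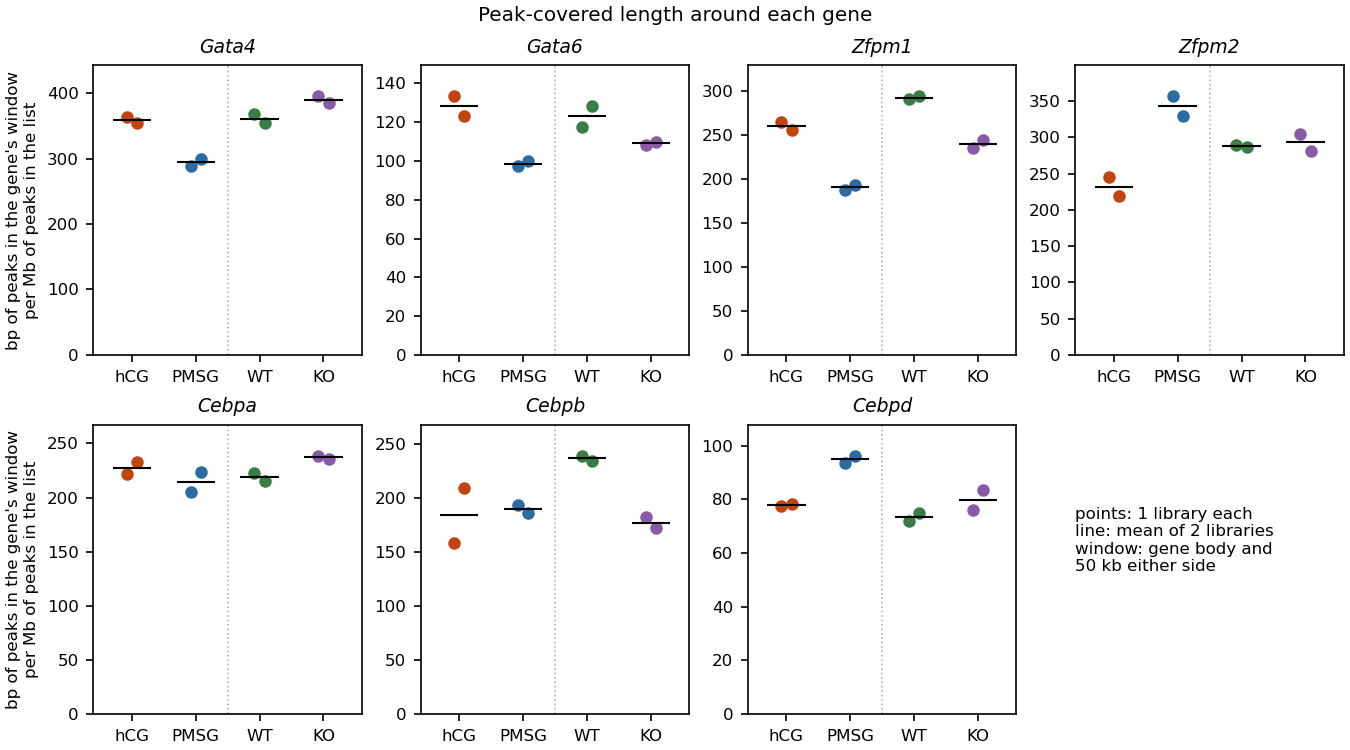
Points give, for each of the 7 genes, the bp of peaks in the gene body and 50 kb either side per Mb of peaks in the list, 1 point per library, and the line is the mean of 2 libraries. Axes start at 0 and differ between genes. Both PMSG libraries lie below the other 6 at Gata4, Gata6 and Zfpm1 and above them at Zfpm2 and Cebpd.

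By the correlation of covered length over the 8 libraries, among 17956 genes with a peak in every list and away from the members, the gene most like Gata4 was Tbc1d16 (r = 0.996). Others were Ccdc92 for Gata6 (0.981), Kat6b for Zfpm1 (0.990), Bmpr1b for Zfpm2 (0.983), Rhoq for Cebpa (0.963), Zfp648 for Cebpb (0.942) and Olfr919 for Cebpd (0.997). The libraries share their scale and list length, and each was the best of many, so these are descriptions.

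Genes of the same families and of the pathways around them were counted on covered length in the LH experiment with the same test. Of 4 other GATA genes, Gata2 was higher in hCG (116.4 and 124.3 bp per Mb against 69.1 and 53.4 in PMSG, log2 difference 0.88, adjusted p = 0.00447, limma) and Gata5 higher in PMSG (−0.43, adjusted p = 0.0211), a call lost undivided (−0.17, adjusted p = 0.14), while Gata1 and Gata3 did not pass. Of 3 other C/EBP genes, Ddit3, a stress-induced family member, was higher in PMSG (−0.18, adjusted p = 0.0479), a sign that turned undivided (0.18), and Cebpe and Cebpg did not pass. The window of Cebpg shares sequence with that of Cebpa.

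Of 15 partners and targets of GATA factors, 5 were higher in hCG and 6 higher in PMSG, against 20.2% of all genes in each direction. The 5 were Nr5a2, Foxl2, Star, Cyp11a1 and Amh. The 6 were Fshr, Hsd3b1, Inha, Inhba, Inhbb and Fst, which encode among others the FSH receptor, the inhibin subunits and follistatin. The other 4, Nr5a1, Wt1, Lhcgr and Cyp19a1, did not pass. Undivided, Inha turned to higher in hCG (0.18) and Inhba was at 0.0093. The largest of these was Hsd3b1, an enzyme of progesterone synthesis (116.4 and 124.2 in hCG against 219.5 and 214.9 in PMSG, −0.80, adjusted p = 0.00109). The list's median was 0.11, against −0.012 over all genes. Of 11 genes upstream of or dependent on C/EBP beta, 5 were higher in hCG and 1 higher in PMSG, against the same 20.2% in each direction. The 5 were the EGF-like ligands Areg, Ereg and Btc, and the factors Runx1 and Runx2. The receptor gene Egfr was higher in PMSG (−0.20, adjusted p = 0.00839) and turned undivided (0.16), and Mapk3, Ptgs2, Tnfaip6, Has2 and Ptx3 did not pass. The median of this list was 0.19. Areg, Ereg and Btc are neighbours on chromosome 5, so that the windows of Areg and Ereg share sequence. No gene of the 4 lists passed in the PR experiment.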

How the data were processed

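ATAC-seq peak lists of 8 granulosa cell libraries were analysed. Bowtie2, MACS2 and mm10 are named in the submitters' processing notes, and versions are not given in the sources used here. Peak names of the PR lists mention filtering and marked duplicates and those of the LH lists do not. A shift of reads for the Tn5 cut is not stated. In the deposited lists, column 7 was taken as a ratio (the fold of a summit over its local background) and used only for ranks within a list. Their deposited column 9 was taken as −log10 of a q-value, and none is under 10. Reads are not counted in the lists, so depth is unknown.

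Summits sharing an interval were joined, chromosomes 1 to 19 and X kept, and intervals of all lists merged into regions. Genes came from RefSeq (GRCm38.p6, the same assembly as mm10), without strand or exons, so exons and introns are not told apart. Tests used limma 3.58.1 in R 4.3.3 on the 4 libraries of 1 experiment, with p-values adjusted over all regions or all genes with a peak in at least 2 libraries. The tests were checked on simulated data with 200 features altered, and the PR rank test found fewer of these than the LH rank test. Regions given in full are those at gene ends, the best ranked, the best ranked group-only region of each class and the largest rank call per direction. Other regions are counted. The members and gene lists were chosen with earlier results of these data known. A further gene was left out of these lists and is not reported here. Alternatives were the same number of peaks per list, a −log10 q of 20 or more, 50% cover, merging within an experiment, log2 of fold, a pseudocount of 1, no filter, the replicate number as a block and leaving out each library. Covered length undivided by list length (pseudocount 400 bp), ranks of −log10 q and equal lists by −log10 q were chosen after seeing the data.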

Additional observations from a re-analysis of the deposited data

How the results depend on the processing

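With 2 libraries a group and no read depth, absence of a peak can be a matter of sensitivity. Leaving out 1 library can only keep or raise a count of group-only regions. Shares over all regions were not counted with a library left out or at 50% cover. Of 196 values of the 23 LH rank calls under the alternatives, 133 kept direction and call, 61 kept direction only and 2 turned. The hCG-only count of 17 was 26 where intervals had to cover 50% of a region, and 18 to 26 with 1 library left out; PMSG-only (14) was 14 to 20. WT-only (14) was 2 with the same number of peaks by fold, 3 by −log10 q, and 18 to 28 with 1 library left out. KO-only (1) was 10 with the same number of peaks by fold, 0 by −log10 q, 0 at a −log10 q of 20 and 0 at 50% cover, and 1 to 2 with 1 library left out. The LH rank counts of 13 (hCG) and 10 (PMSG) were 6 and 4 with equal lists, and 7 to 11 and 5 to 7 with 1 library left out.

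Replicate numbers were taken only as names of samples, and whether same-numbered libraries were handled together is unknown. Deviations of same-numbered libraries correlated at 0.036 (LH) and −0.019 (PR). With the replicate block the rank counts were 12 and 7 in LH and 0 in PR. Members with covered length higher in PMSG (2) were 1 with equal lists, 0 undivided and 1 to 2 with 1 library left out, and those higher in hCG (3) were 4 undivided and 2 to 3 with 1 library left out. In PR 1 member (Cebpb) was higher in WT undivided. On the undivided scale the median of all genes was itself 0.32 higher in hCG and 0.24 higher in WT (log2). The share of all genes called on it is not given, so these undivided counts have no background. Signs turned, for reasons not tested, as follows. By −log10 q the Cebpb regions at 167661006 and 167697852 were at 0.045 and 0.0301. In LH undivided, Cebpb was 0.29 and Cebpd 0.077, and with 1 library left out Cebpb ran from −0.24 (without hCG replicate 2) to 0.14 (without hCG replicate 1). In PR undivided, Gata4 was 0.20, Zfpm2 0.28, Cebpa 0.19 and Cebpd 0.18. In PR with equal lists, Gata6 was −0.80, Cebpb −0.37 and Cebpd 0.047, and Zfpm2 ran from −0.080 (without KO replicate 2) to 0.034 (without KO replicate 1).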
